A study of Homo sapiens with 8 samples.

Results

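The genomic regions examined here are those that carried H3K23su or H3K27ac in the parental human colon cancer cell line HCT15 (HCT15-Pa). The 4 CUT&Tag peak lists of these cells, 2 for each mark, were merged wherever peaks overlapped or touched, which gave 131952 regions. H3K23su-only regions had a peak in both H3K23su lists and in no H3K27ac list, H3K27ac-only regions were the reverse, and regions with both marks had a peak in all 4 lists. There were 5546 H3K23su-only regions (4.2% of all merged regions), 8762 H3K27ac-only regions (6.64%) and 28856 regions with both marks (21.9%).

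HCT15 is an established line of human colorectal adenocarcinoma. The parental cells were labelled as treated with DMSO, the drug's solvent, while the 5-fluorouracil-resistant derivative (HCT15-FR), used below only to see how the classes read in other lists, was labelled as treated with 20 µg/mL of the drug. The study's methods describe parental culture without drug, and resistant cells kept for some days without it before experiments. Each of the 4 groups of line and mark had 2 lists. No label says that the replicates came from separate cultures, so the spread between lists may be technical. The antibody and the mark changed together and cannot be told apart. The study's methods also give the peak caller's broad mode for H3K27ac, but the narrowest peak had the same width in all 4 lists, and which output was deposited is not given in the sources used here.

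Succinylation and acetylation both neutralise the positive charge of a histone lysine, but the succinyl group is larger and carries a negative charge of its own. Succinyl-CoA, the donor of the succinyl group, is made in the tricarboxylic acid cycle by the 2-oxoglutarate dehydrogenase complex, and acetyl-CoA is the donor for acetylation. H3K27ac, written by EP300 and CREBBP, is the usual mark of active promoters and enhancers. AP-1, dimers of FOS and JUN family proteins, binds the sequence TGACTCA and occupies many enhancers in epithelial cells.

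The sequences below are reference sequence (GRCh37, plus strand) from the strongest regions of each class, with matches to any of 18 transcription factor motifs in capitals. The 3 longer ones are the central 240 bases of high-ranking regions and need not be typical of their class.
H3K23su-only, intron of LHFPL2, chr5:77929187-77929426: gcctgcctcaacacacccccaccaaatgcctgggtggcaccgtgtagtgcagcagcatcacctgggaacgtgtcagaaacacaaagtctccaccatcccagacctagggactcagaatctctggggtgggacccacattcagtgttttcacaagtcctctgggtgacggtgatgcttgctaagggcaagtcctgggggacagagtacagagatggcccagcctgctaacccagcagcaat
H3K23su-only, internal start site of RNF145, chr5:158590497-158590736: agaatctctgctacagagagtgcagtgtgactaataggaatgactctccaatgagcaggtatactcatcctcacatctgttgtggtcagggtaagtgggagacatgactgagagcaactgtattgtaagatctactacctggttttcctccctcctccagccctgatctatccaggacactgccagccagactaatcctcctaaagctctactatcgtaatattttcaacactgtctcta
Both marks, intergenic near NID1, chr1:236260442-236260681: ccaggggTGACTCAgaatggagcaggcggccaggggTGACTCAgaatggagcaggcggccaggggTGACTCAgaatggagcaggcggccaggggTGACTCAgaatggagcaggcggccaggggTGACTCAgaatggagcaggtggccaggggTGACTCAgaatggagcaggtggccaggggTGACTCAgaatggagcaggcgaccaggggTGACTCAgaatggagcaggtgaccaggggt
Neither H3K23su-only sequence held a match, and the NID1 sequence was a tandem repeat with an AP-1 motif in its units. The next 4 sequences are 61 bases around the AP-1 motif in high-ranking regions outside promoters that held it, shown because the share of regions with this motif differed between the classes.
H3K27ac-only, intron of SERINC2, chr1:31895411-31895471: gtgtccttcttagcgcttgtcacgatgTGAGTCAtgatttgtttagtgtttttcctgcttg
H3K27ac-only, exon of FBXL13, chr7:102618840-102618900: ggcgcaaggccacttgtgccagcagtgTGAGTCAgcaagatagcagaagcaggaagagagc
H3K27ac-only, near PLIN2, chr9:19161730-19161790: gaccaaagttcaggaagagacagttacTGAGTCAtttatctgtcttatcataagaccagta
H3K23su-only, intron of HDGFL3, chr15:83862664-83862724: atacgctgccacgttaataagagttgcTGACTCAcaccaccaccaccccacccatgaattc

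The 2 marks overlapped in much of their sequence, and 2 lists of the same mark overlapped more than lists of different marks. The H3K23su lists held 66134 and 65364 peaks that covered 33.5 and 33.0 Mb, and the H3K27ac lists held 71819 and 70600 peaks that covered 39.5 and 38.8 Mb. Of the bases in either of 2 lists, the share in both (the Jaccard index) was 0.426 for the H3K23su pair and 0.490 for the H3K27ac pair, against 0.369 to 0.370 for the 4 pairs of different marks. Most merged regions were in few lists, and 68385 of them (51.8%) were in 1 list alone.

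To see how many regions the marks separate beyond what any 2 lists would, the 4 lists were also divided in the 2 other possible ways. Dividing by mark separated 14308 regions. Dividing by replicate number separated 3970, and the crossed division (H3K23su 1 with H3K27ac 2 against H3K23su 2 with H3K27ac 1) separated 4014. The difference in Jaccard index between pairs on the same side and pairs on opposite sides was 0.09 for the marks and −0.04 for both other divisions. The division by mark therefore gave the largest value for both measures. For the number of regions only larger counts were taken as extreme, and the test of the Jaccard difference was two-sided. Each gave an exact permutation p = 0.333, the smallest p that 4 lists in 2 pairs allow. All differences between the classes below carry this limit unless a larger p is given, and intervals are 95% exact binomial (Clopper-Pearson) intervals that cover counting error only.

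**Figure D1:**
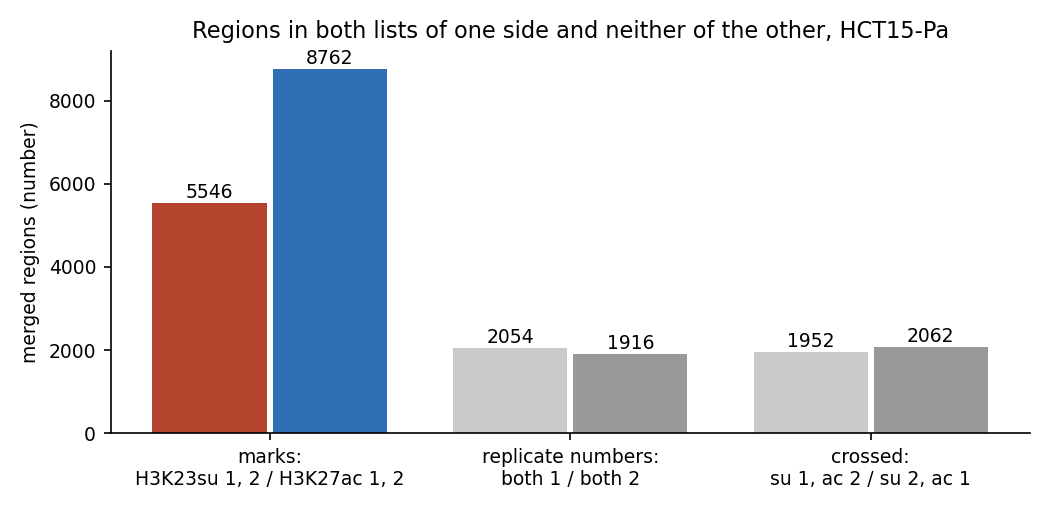
Number of merged HCT15-Pa regions (vertical axis) with a peak in both lists of one side and in neither list of the other, for the division by mark (coloured) and the 2 control divisions (grey). The marks separated 5546 and 8762 regions, and each side of a control division held 1916 to 2062.

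Peaks of either class alone were weaker than shared ones. Within its own list, the best peak of an H3K23su-only region stood at a median percentile of 38.8 and 37.7 in the 2 lists, and that of an H3K27ac-only region at 43.7 and 43.3. Regions with both marks stood at 73.0 and 72.5 for H3K23su and at 76.9 and 76.4 for H3K27ac. The single-mark classes, each merged from 2 lists, had median widths of 470 and 480 bp. This was a difference of −10 bp against −1 and 14 bp in the control divisions (exact permutation p = 0.667). Regions with both marks, merged from all 4 lists, had a median of 1080 bp. Within them the median length covered by a single list was 703 and 698 bp for H3K23su and 813 and 803 bp for H3K27ac. The width difference was −255 and −253 bp without H3K23su replicate 1 or 2 and turned to 237.5 and 237 bp without H3K27ac replicate 1 or 2. In these settings 1 mark was read from a single list and the other was still merged from 2. The values therefore cannot compare the widths of the marks. Within 1 kb of 18.6% of the H3K23su-only regions lay a peak of at least 1 H3K27ac list, and within 1 kb of 14.7% of the H3K27ac-only regions lay an H3K23su peak. The median gaps to the other mark were 5662.5 and 6755 bp.

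H3K23su-only regions lay mainly within introns, and H3K27ac-only regions were spread over introns, intergenic sequence and promoters. The midpoint was intronic in 68.3% (67.1 to 69.5%) of H3K23su-only regions, in 41.5% (40.5 to 42.6%) of H3K27ac-only regions and in 41.0% of regions with both marks. Intergenic sequence held 12.4%, 30.3% and 15.9% of the 3 classes, respectively. The promoter TSS class, from 1 kb before a transcription start site (TSS) to 100 bp after it, held 8.37% (7.65 to 9.13%) of H3K23su-only regions, 15.6% (14.9 to 16.4%) of H3K27ac-only regions and 32.4% (31.9 to 33.0%) of those with both marks. Of all merged regions, 52.2% were intronic, 21.0% intergenic and 14.6% in the promoter class. The H3K27ac-only promoter share was thus close to that of all regions, and the H3K23su-only share lay below it. Intron share thus differed by 26.8 percentage points between the single-mark classes, against 2.03 and 0.66 points between the sides of the control divisions. For intergenic share the difference was −17.9 points (controls −2.23 and 0.14), and for promoter share −7.27 points (controls 0.29 and −1.67). The promoter difference was −15.4 points with the stronger 50% of each list, −12.6 points with at least 50% of each region covered, and −2.96 and −3.10 points without H3K27ac replicate 1 or 2. Exon and TTS (transcription termination site) shares differed by less than 1 point each, with exact permutation p = 0.667 and p = 1.

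The whole lists differed in the same direction by a smaller amount. Introns held 52.5% and 52.4% of the peaks in the H3K23su lists and 45.2% and 44.9% in the H3K27ac lists, without overlap (difference 7.38 points, exact permutation p = 0.333). Promoters held 19.8% and 19.9% of H3K23su peaks and 20.9% and 21.1% of H3K27ac peaks, a difference of −1.12 points. This last difference turned to 0.59 points when promoters were taken as 2 kb either side of a TSS.

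**Figure D2:**
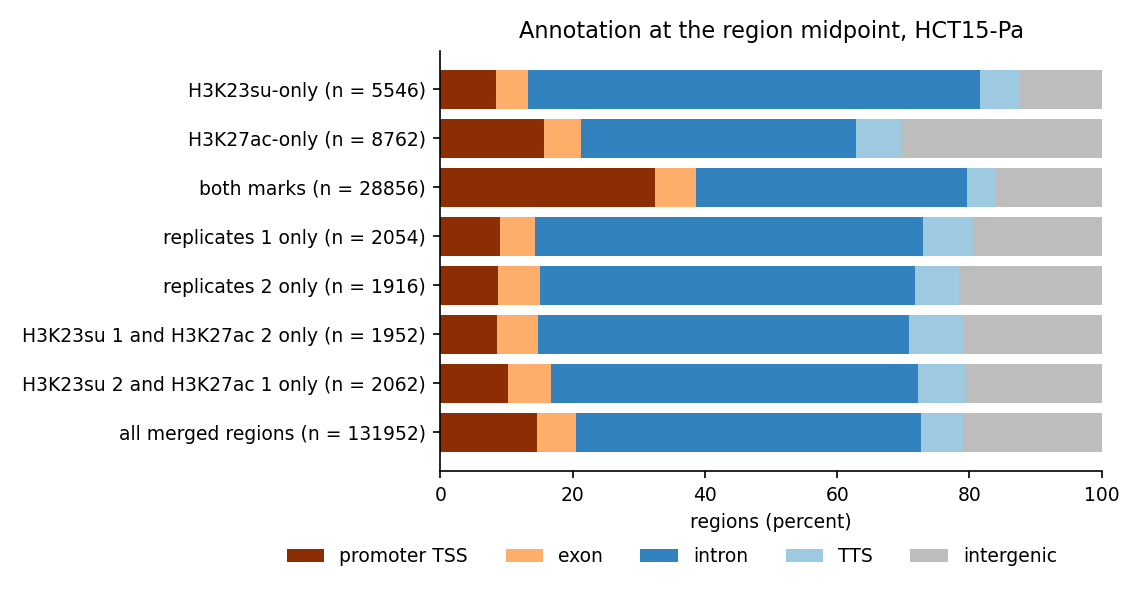
Share of regions (horizontal axis, percent) by the annotation of their midpoint, for the 3 classes, the sides of the 2 control divisions and all merged regions. Introns take 68.3% of the H3K23su-only bar and 41.5% of the H3K27ac-only bar, and 55.4% to 58.8% of the 4 control bars.

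Most intronic H3K23su-only regions sat in genes whose own promoter carried both marks. Of 3261 such regions inside the canonical transcript of a protein-coding gene, 2725 (83.6%, 82.2 to 84.8%) had a host gene with a peak of all 4 lists within 1 kb of its TSS, and 217 (6.65%) had a host with no peak there. For the 2385 intronic H3K27ac-only regions the shares were 50.6% (48.6 to 52.6%) and 27.3% (25.5 to 29.1%). Genes with both marks at the TSS made up 51.5% of the bases in all protein-coding gene spans, and genes with no peak there 36.6%. Of all 53596 merged regions in such introns, 71.2% had a host with both marks, so the H3K23su-only share lay above that of all regions and the H3K27ac-only share below it, near the share of gene bases. The difference between the classes in the share with a both-mark host was 33.0 points, against −0.57 and 0.97 in the control divisions.

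Position and length of the host gene differed less. The intronic H3K23su-only regions lay at a median of 40.1% of the way along the gene and those of H3K27ac-only at 47.4%, while intronic regions with both marks lay nearer the start, at 33.3%. The difference of −7.29 points compared with −0.08 and 1.23 in the control divisions. Median host gene length was 116998 bp for H3K23su-only and 115556 bp for H3K27ac-only regions (exact permutation p = 0.667). The 3261 H3K23su-only regions were spread over 2327 genes, of which 26 held 5 or more. The 2385 H3K27ac-only regions were spread over 1828 genes, of which 9 held 5 or more. The genes named in the rest of this paragraph were picked after their counts were seen. FAF1, an adaptor of the ubiquitin pathway, and LRCH1 each held 8 intronic H3K23su-only regions, with 0 and 1 H3K27ac-only regions. DOCK1, an activator of RAC1, and MED13L, a subunit of the Mediator kinase module, held 7 each, with 0 and 1 of the other class. DLGAP2, a scaffold protein of synapses, went the other way, with 19 H3K27ac-only and 0 H3K23su-only regions, and PTPRN2, a phosphatase-like protein of secretory granules, held 15 and 3. Neither of these last had both marks at its TSS. They are long genes of 969 and 1049 kb, and they also held 8 and 16 both-mark regions. FAF1, LRCH1, DOCK1 and MED13L span 523, 192, 657 and 319 kb and held 3, 6, 5 and 4 both-mark regions.

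**Figure D3:**
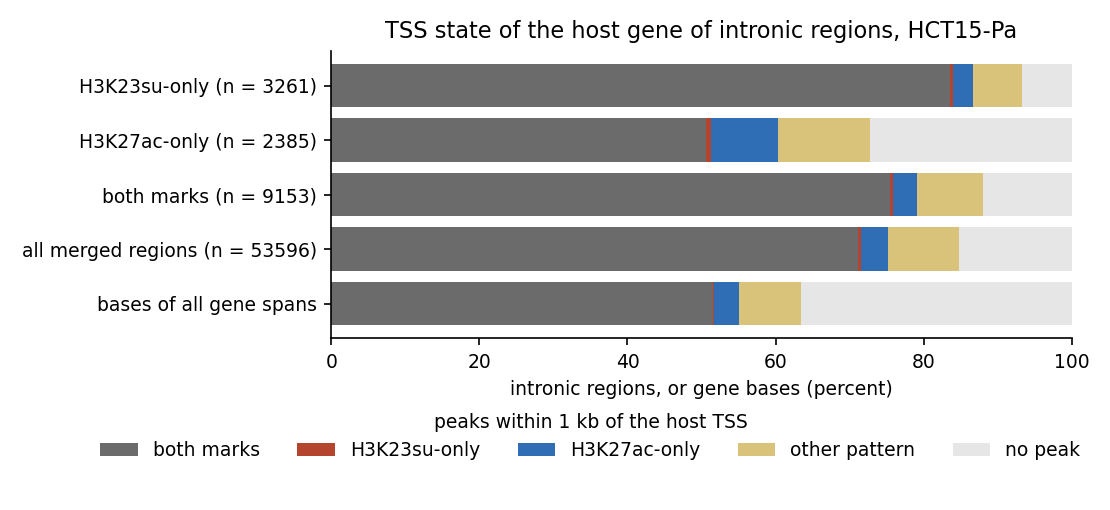
State of the host gene's TSS (colours: peaks of the 4 lists within 1 kb) for intronic regions of each class and for the bases of all protein-coding gene spans (horizontal axis, percent). Genes with both marks at the TSS hosted 83.6% of intronic H3K23su-only and 50.6% of intronic H3K27ac-only regions, and made up 51.5% of gene bases.

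The classes differed in base composition. The median GC content of the 400 bp around the midpoint was 49.8% in H3K23su-only regions, 56.2% in H3K27ac-only regions and 58.0% in regions with both marks. Over all merged regions it was 53.5%. The difference of −6.50 points between the single-mark classes compared with −0.50 and 0.25 in the control divisions. It was −3.50 points with the stronger 50% of each list, and −4.25 and −4.00 points without H3K27ac replicate 1 or 2. Windows with at least 5 CpG dinucleotides per 100 bp, as in CpG islands, made up 1.37% (1.08 to 1.71%) of H3K23su-only, 17.6% (16.8 to 18.4%) of H3K27ac-only and 34.8% (34.3 to 35.4%) of both-mark regions. They made up 12.6% of all merged regions. Within the promoter class the order was the same: 5.39% of 464 H3K23su-only promoter regions were CpG-rich, against 46.6% of 1370 H3K27ac-only and 72.9% of 9360 with both marks.

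The AP-1 motif was less frequent in H3K23su-only than in H3K27ac-only regions. TGACTCA, on either strand within 200 bp of the midpoint, occurred in 558 H3K23su-only regions (10.1%, 9.28 to 10.9%), 1425 H3K27ac-only regions (16.3%, 15.5 to 17.1%), 4140 regions with both marks (14.3%) and 11.7% of all merged regions. The difference between the single-mark classes was −6.20 points, against −1.38 and 0.26 in the control divisions. Without H3K27ac replicate 1 or 2 it was −1.58 or −0.65 points, and with the stronger 50% of each list −11.8 points. AP-1 matches were rarer at high GC content, and H3K23su-only regions had the lower GC content, so the comparison was repeated at equal GC. Between 40% and 45% GC, 11.99% of 1009 H3K23su-only regions and 37.5% of 712 H3K27ac-only regions held the motif. Between 50% and 55% GC the shares were 10.9% of 1280 and 19.3% of 1639, and between 60% and 65% they were 7.20% of 403 and 7.63% of 1481. Over the bins of 5 GC points with at least 20 regions of each class the unweighted mean difference was −12.6 points. Between 70% and 75% GC, where H3K23su-only had 17 regions and was left out of that mean, the order was the opposite, with 11.8% against 2.48% of 403.

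This difference was found inside introns as well. Among intronic regions the motif occurred in 9.32% (8.41 to 10.3%) of H3K23su-only, 18.7% (17.4 to 20.0%) of H3K27ac-only and 17.7% (17.0 to 18.4%) of both-mark regions. Within introns of protein-coding genes the difference was −10.1 points, against −2.36 and −1.23 in the control divisions. Among intergenic regions the shares were 13.7%, 16.7% and 22.9%, and there the difference of −3.00 points was smaller than the 4.25 points of the crossed division (exact permutation p = 0.667). The matches were concentrated at the centre of H3K27ac-only regions, with 33.8 matches per 1000 regions in the bin from 100 to 50 bp before the midpoint and 8.33 in the bin from 500 to 450 bp before it. H3K23su-only regions had a smaller rise, to 17.9 in the 50 bp before the midpoint, against 10.1 from 500 to 450 bp before it. In both-mark regions these bins held 22.4 and 11.3. Over all bins the H3K23su-only values ranged from 8.84 to 17.9.

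**Figure D4:**
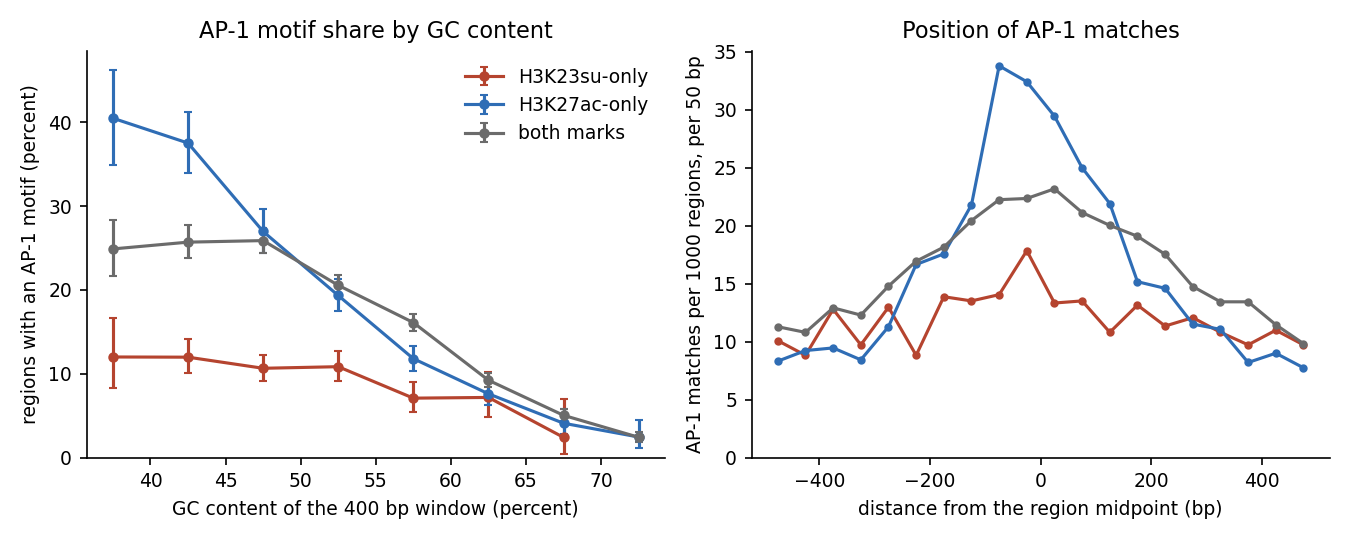
Left: share of regions with TGACTCA on either strand within 200 bp of the midpoint (percent) against GC content, in bins of 5 points holding at least 100 regions of the class, with 95% exact binomial intervals. Right: AP-1 matches per 1000 regions in 50 bp bins by distance from the region midpoint; the H3K27ac-only line reaches 33.8 near the centre and the H3K23su-only line stays at or below 17.9.

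Other motif shares that were read by GC content also moved with it, and those of CTCF and ETS were not read this way. The GC box GGGCGGG, bound by SP and KLF family factors, was in 5.50% of H3K23su-only, 16.4% of H3K27ac-only and 25.2% of both-mark regions (12% of all regions). At 55% to 60% GC the shares of the single-mark classes were 10.1% and 10.4%, and at 60% to 65% GC 15.9% and 18.7%. The H3K27ac-only share was the higher one in each bin from 45% to 75% GC. It was 4.14% against 1.80% at 45% to 50% GC and 38.6% against 31.7% at 65% to 70%. From 35% to 45% GC the H3K23su-only share was the higher one, on few matches. It was 0.78% of 258 against 0% of 304 regions at 35% to 40%. At 40% to 45% it was 1.39% of 1009 against 1.12% of 712. Both shares were 0% at 30% to 35%. The CTCF core CCTNGTGGC, of the insulator protein, was in 2.15%, 3.72% and 2.50% (2.70% of all). The ETS motif CCGGAAGT was in 0.29%, 0.78% and 2.16% (0.78% of all), and its both-mark share came to 5.21% inside promoters. The letters CNATAAA, bound by the intestinal factor CDX2, were in 14.1%, 11.1% and 10.3% (11.8% of all). In each bin from 35% to 60% GC the H3K27ac-only share was the higher one, as with 22.6% of H3K23su-only and 29.6% of H3K27ac-only regions between 40% and 45%. Between 60% and 65% GC the H3K23su-only share was higher (4.96% and 3.31%), as it was below 35% GC, where the classes had 24 and 47 regions. The GATA motif AGATAAG was in 5.64%, 3.87% and 4.03% (4.42% of all), and between 45% and 50% GC in 6.62% and 6.76% of the single-mark classes. The TCF motif CTTTGAT of Wnt signalling was in 5.37%, 3.97% and 4.43% (4.36% of all). Its difference of 1.40 points was hardly larger in size than the control values of −1.40 and −1.36. The order of the single-mark classes for the TCF motif also changed with GC content. Between 45% and 50% GC it was in 5.40% of H3K23su-only and 7.35% of H3K27ac-only regions, and between 50% and 55% in 5.16% and 4.09%. The FOX motif TGTTTAC differed by 1.28 points, less than the 1.52 points between replicate numbers (exact permutation p = 0.667).

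The strongest H3K23su-only region outside promoters lay in an intron of LHFPL2, with scores (−log10 P of the peak caller) of 8.26 and 7.55 in the 2 H3K23su lists. It was followed by a site upstream of the TSS of VDR, the vitamin D receptor, with 7.34 and 6.61. Introns of VRK1, a nuclear serine/threonine kinase, and of JAK1, the cytokine receptor kinase, came next, with scores of 6.51 and 7.19 and of 6.45 and 6.70. The hosts LHFPL2, VRK1 and JAK1 had both marks at their own TSS. An H3K27ac peak lay 576 bp from the LHFPL2 region and 1079 bp from the JAK1 region, and 29711 bp from the VRK1 region. In HCT15-FR the LHFPL2 and JAK1 regions had a peak in all 4 lists. The VRK1 region had one in both H3K23su lists and in H3K27ac replicate 2, and the VDR region in H3K23su replicate 1 alone.

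The weaker of the 2 peaks stood at percentiles of 77.0 to 90.8 in the strongest 4 H3K23su-only promoter regions. Of these, those at UPK3BL2 (scores 6.66 and 7.47) and NPIPB11 (5.39 and 5.51) lie in gene families with near-identical copies, where uniquely mapped reads are less certain. RNF145, a ubiquitin ligase of the endoplasmic reticulum, had 5.82 and 6.11 at a site 581 bp upstream of an internal start, with the nearest H3K27ac peak 26234 bp away. TM7SF2, a sterol reductase of cholesterol synthesis, had 5.60 and 6.50, with an H3K27ac peak 862 bp away. In HCT15-FR the UPK3BL2 region was H3K23su-only again and the NPIPB11 region was H3K27ac-only. The RNF145 and TM7SF2 regions had a peak in both H3K23su lists and in H3K27ac replicate 1 there.

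The H3K27ac-only promoter regions of EEF1D, AKT1S1 and MEPCE, 3 of the strongest 4, stood at percentiles of 96.6 to 99.4 for the weaker peak, and each had an H3K23su peak within 386 to 593 bp. EEF1D, a translation elongation factor subunit, had 22.7 and 21.96, with H3K23su 593 bp away. AKT1S1, an inhibitor of mTORC1, had 16.4 and 15.8, and MEPCE, the capping enzyme of 7SK RNA, had 13.6 and 15.8, with gaps of 517 and 386 bp. Outside promoters the strongest was an intronic region of FMN2 (38.4 and 27.8), a pyrimidine-rich tandem repeat, 314003 bp from an H3K23su peak. An exonic region of PPP2R5C, a regulatory subunit of phosphatase PP2A (13.8 and 16.8), a region within SAP30BP (12.8 and 12.5) and the SERINC2 intron with the AP-1 motif (12.1 and 13.99) followed. None of these regions was H3K27ac-only in HCT15-FR. Those of AKT1S1, MEPCE, PPP2R5C, SAP30BP and SERINC2 had a peak in all 4 lists there. Those of EEF1D and FMN2 had one in both H3K27ac lists and in H3K23su replicate 1 or 2, respectively.

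The 2 strongest regions with both marks outside promoters were tandem repeats. The intronic SERINC2 repeat had H3K23su scores of 120 and 114 and H3K27ac scores of 210 and 185, and the NID1 repeat printed above had 76.8 and 69.4, and 178 and 161. An intergenic region 43383 bp from the TSS of SOX8 and a region in PHRF1 followed. Their H3K23su scores were 42.5 and 38.9 and 53.9 and 51.5. Among the strongest promoters were DLD, whose product is the shared E3 subunit of the 2-oxoglutarate dehydrogenase complex that makes succinyl-CoA, with H3K23su scores of 15.6 and 13.8 and H3K27ac scores of 28.6 and 29.7. TMEM260 (14.3 and 13.8, and 33.8 and 30.7) and UCHL3, a deubiquitinase (13.4 and 15.1, and 29.8 and 36.0), stood beside it. At the head of the promoters was an internal start site of ATP11A, a phospholipid flippase, with 22.4 and 23.4, and 75.6 and 77.5. The centre of this region was a tandem repeat as well. As at the near-identical gene copies named above, uniquely mapped reads are less certain in such repeats, that of FMN2 included.

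Within the regions that carried both marks, H3K27ac covered more sequence in every annotation class. The H3K27ac lists also had wider peaks as a whole, with mean widths of 550 and 550 bp against 507 and 505 bp for H3K23su. In the 9360 promoter regions the median covered length was 898 and 897 bp in the H3K23su lists and 1077 and 1070 bp in the H3K27ac lists. In the 11842 intronic regions it was 628 and 628 bp against 688 and 675 bp, and in the 4600 intergenic regions 573 and 560.5 bp against 667.5 and 660.5 bp. By rank within its own list the H3K27ac peak was the higher one in most promoter regions, and the H3K23su peak was higher in 37.7% of them. In introns the H3K23su peak ranked higher in 50.6%, and in intergenic, exonic and TTS regions in 42%, 44.5% and 45.0%. Ranks place each mark on its own scale, and scores of the 2 marks come from separate peak calls.

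At the TSSs of genes the marks mostly occurred together, and a mark found alone was H3K27ac far more often than H3K23su. Of 19881 protein-coding genes, 10731 (54%) had a peak of all 4 lists within 1 kb of the canonical TSS and 6386 (32.1%) had no peak. H3K27ac alone was at 648 genes (3.26%) and H3K23su alone at 49 genes (0.246%). The sides of the control divisions held 43 to 51 genes, so the 49 genes were no more than the replicates give between themselves, and the 648 were above that. The highest-ranking of the 648 included AKT1S1, UXT and RPS27, a protein of the small ribosomal subunit (12 and 13 in the H3K27ac lists). The highest-ranking of the 49 were SUSD2 (4.95 and 5.54 in the H3K23su lists), NBDY (4.91 and 4.74) and SLC3A1, a renal and intestinal amino acid transporter (4.58 and 4.93).

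Most genes of housekeeping groups carried both marks. All 4 lists had a peak at 75 of 77 mitochondrial ribosomal protein genes, 35 of 36 NDUF genes of respiratory complex I and 69 of 83 ribosomal protein genes, where RPL18 and RPS27 had H3K27ac alone. The writers and erasers of histone acyl groups, with the subunits of the complex that makes succinyl-CoA, had both marks at 21 of 22 genes, all but SIRT7. They included EP300, CREBBP, KAT2A, KAT2B, OGDH, DLST, the desuccinylase SIRT5 and the deacetylases HDAC1 to HDAC3. Of 19 genes of 5-fluorouracil and pyrimidine metabolism, 16 had both marks, TYMS, the drug's target, among them, the catabolic enzyme DPYD had a peak in 1 H3K27ac list, and TYMP and UPP2 had none. Both marks were at 47 of 64 replication-dependent histone genes and at 13 of 17 AP-1 genes, and FOSL2, JUNB and JUND had another pattern. These counts stand beside the 54% of all genes.

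Families with expression restricted to certain tissues had few peaks, against 32.1% of all genes with none. No list had a peak at 387 of 404 olfactory receptor genes, 49 of 51 clustered protocadherin genes and 40 of 55 keratin genes. Of the 504 ZNF genes, 322 (63.9%, against 54% of all genes) had both marks, 11 (2.18%, against 3.26%) had H3K27ac alone and 2, ZNF385A and ZNF618, had H3K23su alone.

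H3K27ac alone, found at 3.26% of all genes, was at 3 genes of intestinal identity, 3 of Wnt signalling and 4 of the HOX clusters. Of 21 intestinal epithelial genes, 15 (71.4%, against 54% of all genes) had both marks. Among them were EPCAM, CDH1, VIL1, HNF4A and KRT18, which are at work in colon epithelium. CDX2 and GATA6, transcription factors of the gut, and the cadherin CDH17 had H3K27ac alone, with low scores of 3.43 and 3.48 at CDX2, and CDX1, EHF and KRT20 had no peak. Of 18 Wnt targets, 9 (50%, near the 54% of all genes) had both marks and AXIN2, EPHB3 and PROX1 had H3K27ac alone. Within 2 kb, AXIN2 had both marks, EPHB3 had another pattern and PROX1 still had H3K27ac alone. HOX genes held H3K27ac alone at 4 of 39, HOXA11, HOXA13, HOXB4 and HOXB6. Of 19 genes of other tissues, 15 (78.9%, against 32.1% of all genes) had no peak, ALB, INS and PTPRC among them. Both marks were at 2 (MBP and TNNT2), COL1A1 had H3K27ac alone, and the remaining gene had another pattern.

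Of 15 genes taken from the study's mechanism, which are not all that it names, 13 carried both marks within 1 kb of the TSS. Among all protein-coding genes the share was 54%. At KLF6, a zinc finger factor of the GC box family, the H3K23su scores were 4.54 and 4.44, near the middle of their lists (percentiles 56.4 and 52.7), and the H3K27ac scores were 19.1 and 21.0 (percentiles 99.1 and 99.3). RAC1, a small GTPase, had 8.18 and 5.19 for H3K23su and 15.6 and 15.7 for H3K27ac. KAT2B went the other way by rank, with H3K23su at 5.97 and 11.5 (percentiles 85.1 and 99.4) and H3K27ac at 5.06 and 6.33 (percentiles 64.9 and 77.1), and its introns held 3 H3K23su-only and 0 H3K27ac-only regions. At FOSL2, an AP-1 gene, a peak of H3K23su was in replicate 1 alone (4.29), with H3K27ac at 13.1 and 9.94, when 1 kb either side of the TSS was read. At TCF7, a Wnt effector, H3K23su was in replicate 2 alone (5.29), with H3K27ac at 4.94 and 7.86. Within 2 kb of the TSS, both FOSL2 and TCF7 had a peak of all 4 lists. Both marks were also present at CTNNB1, CCND1, SEMA3C, TAF6L, EP300, CREBBP, KAT2A, HDAC1, HDAC2 and HDAC3.

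The 4 lists of HCT15-FR, which played no part in choosing the classes, kept the shared regions far more often than the single-mark ones. Of the 28856 regions with both marks, 80.6% (80.1 to 81.1%) had a peak in all 4 HCT15-FR lists. Of the H3K23su-only regions, 11.2% (10.4 to 12.04%) were H3K23su-only again, 15.7% had both marks and 34.1% had no peak. Of the H3K27ac-only regions, 20.2% (19.4 to 21.1%) were H3K27ac-only again, 15.8% had both marks and 29.1% had no peak. Among the merged regions of HCT15-FR itself, 30.4% had both marks, 3.68% were H3K23su-only and 7.36% were H3K27ac-only. Any overlap counted, and both-mark regions were wider (median 1080 bp against 470 and 480 bp) and ranked higher in their lists. A single-mark class also requires that the other mark be absent, so these shares are not on equal terms. Regions that changed sides were rare, with 1.26% of H3K23su-only regions being H3K27ac-only in HCT15-FR and 0.46% the reverse. This rarity was not particular to the classes. Regions of a single H3K23su list were H3K27ac-only in HCT15-FR in 1.58% of cases. Those of a single H3K27ac list were H3K23su-only in 0.75%.

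List by list the mark was kept more often than its partner. The H3K23su-only regions had a peak in 47.0% and 47.1% of cases in the HCT15-FR H3K23su lists and in 28.0% and 30.0% in the H3K27ac lists. The H3K27ac-only regions had one in 57.9% and 58.6% in the H3K27ac lists and in 26.7% and 26.1% in the H3K23su lists. The values of the marks did not overlap in either class. As a comparison, regions found in a single H3K23su list were H3K23su-only in HCT15-FR in 3.68% of cases, and those found in a single H3K27ac list were H3K27ac-only in 5.18%. Of the 648 genes with H3K27ac alone at the TSS, 119 (18.4%) were in the same state in HCT15-FR, as were 2 of the 49 genes with H3K23su alone (4.08%, 0.50 to 13.98%).

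**Figure D5:**
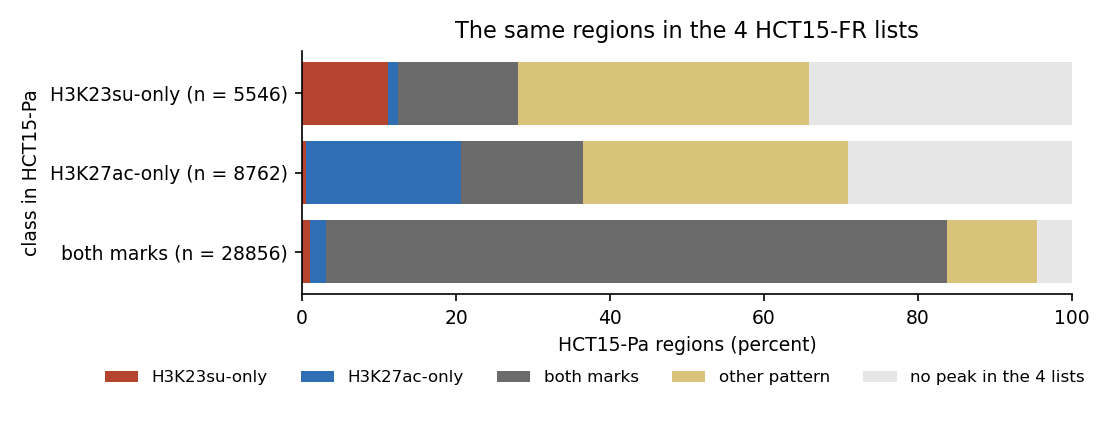
Pattern of peaks in the 4 HCT15-FR lists (colours) for the regions of the 3 HCT15-Pa classes (horizontal axis, percent of the class). The both-mark bar is 80.6% both marks again, and the single-mark bars keep their own class in 11.2% and 20.2% and change sides in 1.26% and 0.46%.

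Classes built from the HCT15-FR lists alone, by the same rule, had the same character. There were 4496 H3K23su-only and 8995 H3K27ac-only regions in HCT15-FR, and 13491 were separated by mark against 3126 and 3027 in the control divisions. Introns held 71.1% of H3K23su-only and 44.7% of H3K27ac-only regions, a difference of 26.4 points (controls 0.62 and 1.02). Of the intronic regions in genes, 90.1% and 52.3% had a host with both marks at its TSS. The AP-1 motif was in 11.6% of H3K23su-only and 18.6% of H3K27ac-only regions, and between 40% and 45% GC in 12.8% and 34.9%. The H3K23su-only promoter share was 8.27% and the H3K27ac-only share 11.7%, a difference of −3.42 points, smaller than in HCT15-Pa. Over the whole HCT15-FR lists the promoter difference was only −0.25 points. There the marks overlapped, with 19.3% and 19.7% of H3K23su peaks and 19.96% and 19.5% of H3K27ac peaks. The difference between the lines was not tested.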

How the data were processed

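CUT&Tag libraries for H3K23su and H3K27ac, 2 of each per line, were sequenced by the study. Per the study's methods, the authors used Bowtie2 for alignment to hg19, filtered with SAMtools for unique, paired reads without duplicates, and called peaks on each library with MACS2, with the broad mode stated for H3K27ac. The deposited lists give for each peak its position and a score, the −log10 P of the caller. Annotation names follow HOMER 4.10. Read depth was not given in the lists and not used here, so a missing peak says only that none was called.

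The members and gene lists were chosen with earlier results of these data known. Peaks of the 4 HCT15-Pa lists on 24 chromosomes were merged where they overlapped or touched (no minimum overlap), and read against GENCODE release 44 lifted to GRCh37. The midpoint set the annotation, with the promoter first. A 400 bp window around it gave GC, CpG and 18 motifs, on both strands. Percentiles rank each peak within its own list. Named regions were, per class, the 4 promoter regions of protein-coding genes and the 4 others whose weakest peak ranked highest, on autosomes and X, over 500 kb from an assembly gap. Other names were the study's mechanism genes and examples from 15 gene lists, and exceptions are stated. Of the genes of other tissues, PECAM1 was not analysed here. Some of the named regions and sequences are not reported here.

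Tests were exact permutations over the 3 divisions of 4 lists into 2 pairs, two-sided except for the number of separated regions. Regions were not treated as replicates. The functions returned planted classes when tested on simulated data. Python 3.11.15 with numpy 2.4.6, pandas 2.3.3, scipy 1.17.1 and matplotlib 3.10.9 was used.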

Additional observations from a re-analysis of the deposited data

How the results depend on the processing

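The directions of the differences in intron share, GC content, AP-1 share, class promoter share and Jaccard index were the same under every alternative tried, each list left out included. With the stronger 50% of each list, there were 2619 H3K23su-only, 5281 H3K27ac-only and 15153 both-mark regions, 7900 were separated by mark, and 8.90% and 21.9% of the single-mark classes kept their class in HCT15-FR. With at least 50% of a region covered, 13875 had both marks and 7.94% of H3K23su-only regions kept their class. With no other-mark peak within 1 kb, 9.59% and 18.9% kept it, and at equal list lengths 19.2% of H3K27ac-only regions did. Promoters of 2 kb either side turned the list-level promoter difference to 0.59 points. Leaving out 1 list loosens the rule for its mark: H3K23su-only regions numbered 8181 to 22310, H3K27ac-only 12234 to 28213, both-mark 31347 to 32305 and separated regions 34189 to 36394. The shares kept in HCT15-FR were then 5.54 to 10.1% and 9.87 to 17.5%, the width difference −255 to 237.5 bp (237 and 237.5 bp, the opposite sign, without H3K27ac replicate 2 or 1), and the AP-1 difference −8.03 to −0.65 points. The sign of the width difference followed which mark was left with a single list. The AP-1 difference was weakest without H3K27ac replicate 1 (−1.58) or 2 (−0.65). The promoter difference was −8.46 to −2.96 points without 1 list and −15.4 to −4.93 otherwise, that of GC −6.50 to −4.00 and −7.25 to −3.50, and that of AP-1 under the other alternatives −12.6 to −4.62. The intron difference, added after seeing the data, was 19.8 to 22.6 points without 1 list and 25.9 to 28.2 otherwise. With the replicate number as a block (replicate block, −1.12 points for the list-level promoter share), sign flips gave p = 0.5, the smallest possible, by exact permutation; the numbers did not pair the lists (correlation of deviations −0.001 over regions).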
